A study of Mus musculus with 16 samples.

Results

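The 8 genes described here are the long noncoding RNA Cardinal (annotated in mouse as Gm12295), 4 protein-coding genes near it on chromosome 11 (Myocd, Arhgap44, Elac2 and Map2k4), and the factors with which myocardin works: its relatives Mrtfa and Mrtfb (older symbols Mkl1 and Mkl2) and serum response factor (Srf). They were chosen by name and by position, with earlier results of these data known, and each was found once among the 55487 genes of the count table. All 8 passed the filter on low counts, which kept 18275 genes.

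Poly(A) RNA of the mouse heart apex was sequenced, with 4 libraries in each of 4 groups. Ctrl sham and Ctrl TAC mice were wild type at Cardinal, and KO sham and KO TAC mice carried a Cardinal knockout made with CRISPR/Cas9. Transverse aortic constriction (TAC) ties the aorta down so that the left ventricle pumps against a higher pressure, and sham mice had the operation without the tie. The mice were male, weighed 25 to 30 g and were operated on by a surgeon blinded to genotype, and the hearts were taken 4 weeks later. The strain, the age, whether Ctrl mice were littermates of KO mice, and which part of the gene was removed are not given in the sources used here. Each library has an animal number of its own and was treated as 1 mouse. Total counts ran from 53169437 to 79404714 per library, and 24458 to 26388 genes had at least 1 count. Markers of heart muscle (Myh6, Tnnt2, Tnni3, Actn2, Ryr2, Pln and Myl2) were abundant in all libraries, whereas markers of atrial muscle summed to 19.7 CPM (the count of a gene scaled to the library total) or less and markers of skeletal muscle to 5.57 CPM or less.

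A library that goes against its label has to be named before any result. The library labelled KO TAC 4 held Cardinal at 4.55 CPM (377 counts, 95% Poisson interval 4.10 to 5.03 CPM), above all 4 Ctrl sham libraries, while the other 3 KO TAC libraries held 0.276 to 0.371 CPM. It is kept under its label, and the differences that rest on the KO TAC group are given with and without it. The first digits of the animal numbers also divide the TAC mice unevenly. Ctrl TAC 2, 3 and 4 and the library labelled KO TAC 4 have numbers starting with 25, and Ctrl TAC 1 and KO TAC 1, 2 and 3 have other numbers. What these numbers stand for is not given.

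SRF is a transcription factor that binds the CArG box, a short element in the promoters of muscle and growth response genes. It activates little on its own. Myocardin, made in cardiac and smooth muscle, and the myocardin-related transcription factors MRTF-A and MRTF-B are coactivators that dock on SRF at these boxes. MRTFs are held in the cytoplasm by monomeric actin and enter the nucleus when actin is driven into filaments, whereas the ternary complex factors of the Ets family compete for the same face of SRF and drive immediate early genes. Pressure overload of the heart is known for the return of fetal genes such as Acta1 and Nppa, several of which carry SRF sites.

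The genes on chromosome 11 lie as follows in GRCm38, with the GENCODE annotation. Gm12295 (ENSMUSG00000085162, lincRNA) runs over chr11:65277654-65365798 on the minus strand and overlaps no other annotated gene. It has 2 annotated transcripts, one of 5 exons and 3189 exon bases and one of 4 exons and 569 exon bases, whose start sites lie 77965 bases apart. Myocd (chr11:65176561-65269989, minus strand) is the next protein-coding gene downstream, with 7664 bases between the 2 genes. Arhgap44 (chr11:65002039-65162961, minus strand) lies 114692 bases from Cardinal and Elac2 (chr11:64979038-65002069, plus strand) 275584 bases. The ends of Arhgap44 and Elac2 overlap by 31 bases on opposite strands, and since it is not stated whether counting used the strand, reads from that overlap cannot be assigned. Map2k4 (chr11:65688243-65788297, minus strand) lies on the other side, 322444 bases away, and hosts Mir744. Mrtfa is at chr15:81012281-81190757 on the minus strand, Mrtfb at chr16:13256481-13417529 on the plus strand and Srf at chr17:46548329-46556175 on the minus strand.

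The promoters show how SRF relates to this set of genes at the level of sequence. Windows of 300 bases, from 250 before to 50 after a RefSeq start site (GRCm38.p6), were available for 7 of the 8 genes (11 windows, with no entry for Myocd). The CArG box was searched on both strands and is in capitals. Cardinal is shown because it is the deleted gene, and Srf because its window is the one of the 11 with the box. Acta1, skeletal muscle alpha-actin, is shown as the SRF target with the largest response to TAC in Ctrl hearts below.
Gm12295, chr11:65287784-65288083, minus strand: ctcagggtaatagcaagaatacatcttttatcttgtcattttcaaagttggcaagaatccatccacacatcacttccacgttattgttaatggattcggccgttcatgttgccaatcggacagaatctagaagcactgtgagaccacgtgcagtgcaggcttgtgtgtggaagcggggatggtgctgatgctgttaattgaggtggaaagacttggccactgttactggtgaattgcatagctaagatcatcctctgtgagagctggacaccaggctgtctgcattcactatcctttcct
Srf, chr17:46556113-46556412, minus strand: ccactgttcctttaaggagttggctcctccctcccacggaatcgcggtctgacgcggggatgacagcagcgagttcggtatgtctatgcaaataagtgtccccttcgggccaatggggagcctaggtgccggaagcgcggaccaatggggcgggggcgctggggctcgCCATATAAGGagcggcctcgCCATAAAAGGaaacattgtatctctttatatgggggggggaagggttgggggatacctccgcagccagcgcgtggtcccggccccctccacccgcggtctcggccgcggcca
Acta1, chr8:123894726-123895025, minus strand: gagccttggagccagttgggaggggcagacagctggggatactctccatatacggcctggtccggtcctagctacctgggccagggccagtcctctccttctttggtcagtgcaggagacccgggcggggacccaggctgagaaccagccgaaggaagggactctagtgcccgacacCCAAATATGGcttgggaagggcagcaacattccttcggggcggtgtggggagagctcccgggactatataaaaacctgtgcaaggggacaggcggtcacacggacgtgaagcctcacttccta
The Srf window holds 2 CArG boxes that begin at -82 and -62 relative to the start site, and the Acta1 window holds 1 at -73. The window of Cardinal, at the start of its transcript of 5 exons, holds none. Of all 32851 windows in the table, 1.63% held a CArG box, against 1 of the 11 windows of the 7 genes with an entry, 8 of 40 windows (20.0%) of the contractile SRF targets and 5 of 15 windows (33.3%) of the immediate early SRF targets described later. The MEF2 motif was in 3.19% of all windows and in 1 window of the set, at an internal start of Mrtfb (chr16:13358171-13358470). No window was available for the other annotated start of Cardinal. By another motif search the authors of the data predicted MEF2 sites in conserved Cardinal promoter regions, and they reported MEF2A binding there. GGAATG, the core of the element bound by TEAD factors, was in 14.7% of all windows and in 2 of the set, those of Arhgap44 and the same Mrtfb start. The 3 motifs were counted separately, also where matches overlap, and a match describes letters in a window, not binding.

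Cardinal was low in all the KO libraries but the library labelled KO TAC 4. In Ctrl sham hearts it was measured at 3.69, 3.86, 3.25 and 3.38 CPM, and in KO sham hearts at 0.553, 0.297, 0.465 and 0.545 CPM. In Ctrl TAC hearts it was measured at 8.03, 2.69, 3.04 and 3.37 CPM, and in KO TAC hearts at 0.371, 0.276, 0.368 and 4.55 CPM. The sham groups are well apart. Among TAC hearts, Ctrl TAC 1 is high and the library labelled KO TAC 4 lies within the range of the Ctrl libraries. Relative to the Ctrl sham mean, the KO sham libraries retained 8.39% to 15.6% and KO TAC 1, 2 and 3 retained 7.79% to 10.5%, which rest on 17 to 35 counts per library. Those reads cannot be placed inside or outside the removed part of the gene, because the table holds 1 count per gene and the removed part is not given.

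**Figure D1:**
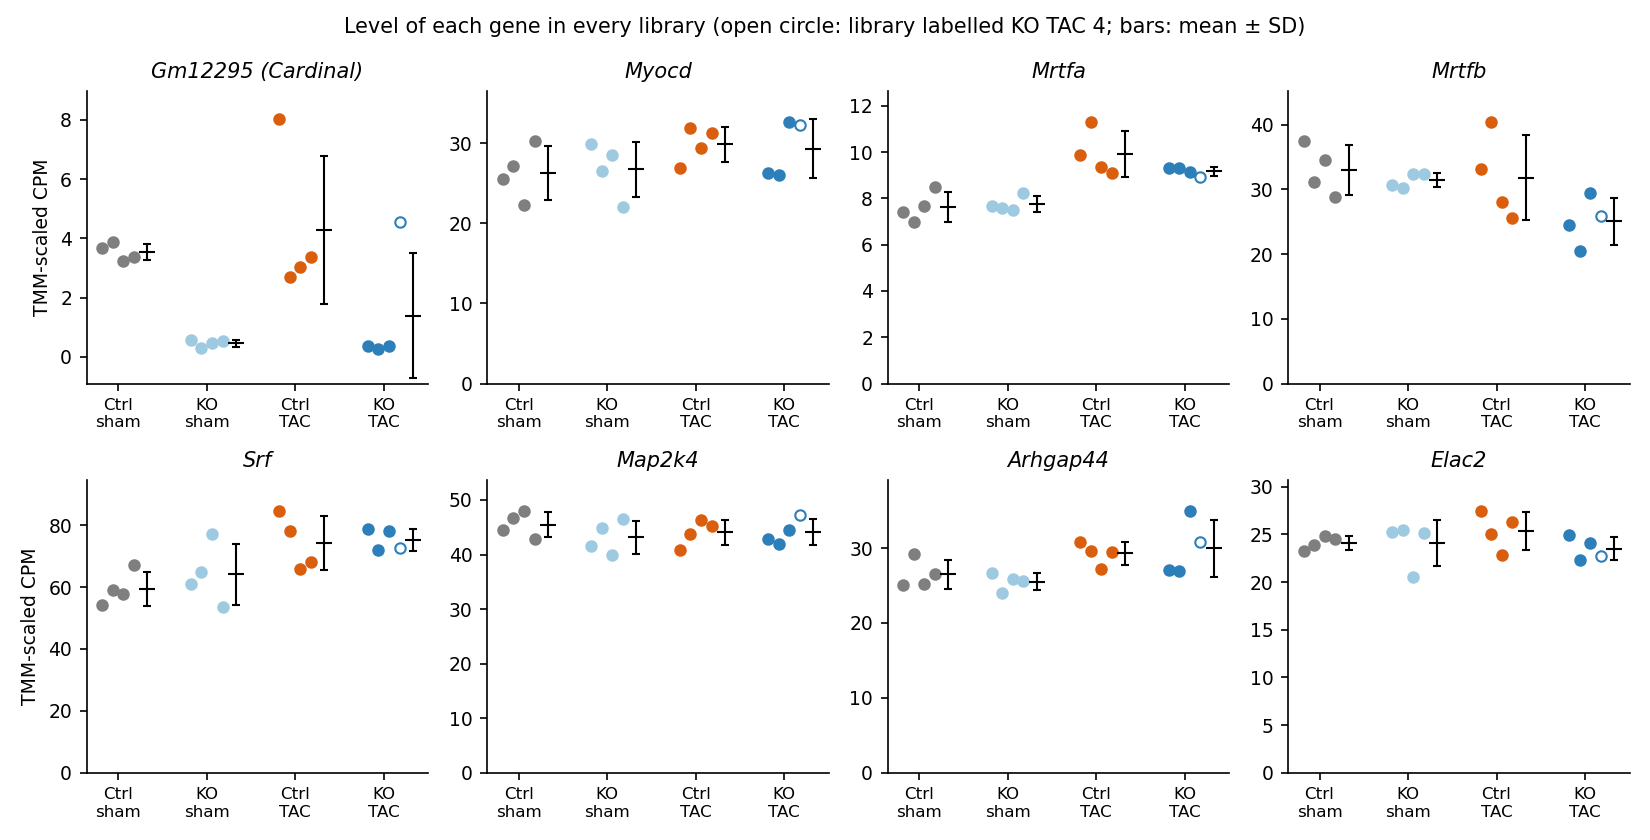
Level of each of the 8 genes in TMM-scaled CPM (vertical axis, 1 panel per gene, linear scale) in the 4 libraries of each of the 4 groups. Points are libraries, the open circle is the library labelled KO TAC 4, and bars are the group mean ± SD, which for Cardinal in KO TAC reaches below 0. That library sits at 4.55 CPM in the Cardinal panel and within or close to the range of the other KO TAC libraries elsewhere.

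Between Ctrl and KO sham hearts the log2 fold change of Cardinal was -2.92 (SE 0.82, edgeR quasi-likelihood test, unadjusted p = 0.00358, adjusted p = 0.9998). Cardinal missed the threshold in this model although its libraries did not overlap, while 1.78% of all tested genes also had no overlap between these groups. With the library labelled KO TAC 4 left out of the same model, the log2 fold change was again -2.92 with an SE of 0.32 and an adjusted p of 0.00258, so the SE of the sham comparison moved with a TAC library. In TAC hearts the log2 fold change was -1.57 (SE 0.72, adjusted p = 0.263) and, without that library, -3.64 (SE 0.38, adjusted p = 0.000944). An exact two-sided permutation test of mean log2 CPM gave p = 0.0286 for KO sham against Ctrl sham, the smallest value that 70 relabellings allow, and 0.114 for KO TAC against Ctrl TAC (0.114 and 0.229 adjusted over 4 comparisons). Without the library labelled KO TAC 4 the exact permutation test gave p = 0.0286 for KO TAC against Ctrl TAC, again the smallest value, which 35 relabellings then allow.

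Cardinal did not differ detectably between TAC and sham Ctrl hearts. Its mean was 3.54 ± 0.280 CPM in Ctrl sham and 4.28 ± 2.51 CPM in Ctrl TAC (SD, n = 4), a log2 fold change of 0.27 (95% interval -1.08 to 1.61, adjusted p = 0.840). The direction rested on Ctrl TAC 1. Without it the mean over Ctrl TAC fell to 3.03 ± 0.340 CPM (SD, n = 3) and the log2 fold change was -0.22, with 3 of 4 Ctrl TAC libraries within or below the sham range. The exact permutation test of TAC against sham gave p = 0.971 in Ctrl and 0.943 in KO, or 0.171 in KO without the library labelled KO TAC 4. As a share of the Myocd counts of the same library, Cardinal stood at 11.2% to 14.6% in Ctrl sham, 8.45% to 10.8% in Ctrl TAC 2, 3 and 4, 29.8% in Ctrl TAC 1 and 14.1% in the library labelled KO TAC 4. In the 7 other KO libraries it stood at 1.06% to 2.48%.

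Myocd, the nearest protein-coding neighbour and the founding member of the coactivator family, did not differ detectably between Cardinal KO and Ctrl hearts. It was measured at 25.5, 27.2, 22.3 and 30.3 CPM in Ctrl sham and at 29.9, 26.5, 28.5 and 22.0 CPM in KO sham. In Ctrl TAC it held 26.9, 31.8, 29.4 and 31.3 CPM and in KO TAC 26.3, 26.0, 32.7 and 32.3 CPM. All 4 groups overlap. The log2 fold change of KO against Ctrl was 0.03 in sham hearts (95% interval -0.18 to 0.24, adjusted p = 0.9998) and -0.03 in TAC hearts (95% interval -0.23 to 0.18, adjusted p = 0.930). Without the library labelled KO TAC 4 the value in TAC hearts was -0.08 (adjusted p = 0.787). For TAC against sham the log2 fold change was 0.18 in Ctrl hearts (95% interval -0.02 to 0.39, adjusted p = 0.254) and 0.13 in KO hearts (95% interval -0.08 to 0.34, adjusted p = 0.371), or 0.08 without that library, and neither passed the test. Both passed with a model term for animal numbers starting with 33 (edgeR adjusted p = 0.0374 in Ctrl and 0.0192 in KO hearts). The interaction was -0.05 (95% interval -0.35 to 0.24, adjusted p = 0.938, or 0.862 without that library).

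Mrtfa rose with TAC in both genotypes. The Ctrl sham libraries held 7.42, 6.97, 7.69 and 8.51 CPM and the Ctrl TAC libraries 9.87, 11.3, 9.35 and 9.11 CPM. The KO sham libraries held 7.67, 7.61, 7.51 and 8.24 CPM and the KO TAC libraries 9.31, 9.34, 9.13 and 8.93 CPM. In each genotype all TAC libraries lie above all sham libraries. The log2 fold change was 0.38 in Ctrl hearts (SE 0.079, 1.30-fold, edgeR quasi-likelihood adjusted p = 0.00232) and 0.24 in KO hearts (SE 0.079, 1.18-fold, adjusted p = 0.0231, or 0.0338 without the library labelled KO TAC 4). The call in KO hearts was narrow, since leaving out any one of KO sham 1, 2, 3 or KO TAC 1 raised the adjusted p to between 0.0503 and 0.0533. The difference between the responses was -0.13 on the log2 scale (95% interval -0.35 to 0.09, adjusted p = 0.705, or 0.761 without that library).

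Srf rose with TAC in Ctrl hearts. It was measured at 54.1, 59.0, 57.8 and 67.1 CPM in Ctrl sham and at 84.5, 78.2, 65.9 and 68.3 CPM in Ctrl TAC. In KO sham the values were 61.0, 64.8, 77.3 and 53.7 CPM, and in KO TAC 78.6, 71.9, 78.0 and 72.5 CPM. In Ctrl hearts Ctrl sham 4 lies above Ctrl TAC 3, and in KO hearts KO sham 3 lies among the TAC libraries. The log2 fold change was 0.32 in Ctrl hearts (SE 0.099, 1.25-fold, adjusted p = 0.0298) and 0.23 in KO hearts (SE 0.099, adjusted p = 0.0832, or 0.100 without the library labelled KO TAC 4). Neither call is firm. Without any one of Ctrl sham 1, 2 or 3 or Ctrl TAC 1 or 2 the call in Ctrl hearts was lost (adjusted p = 0.0625 to 0.0969), and without KO sham 3 Srf passed in KO hearts (log2 fold change 0.33, adjusted p = 0.00888). It also passed in KO hearts with a model term for animal numbers starting with 25 (log2 fold change 0.27, edgeR adjusted p = 0.0426). The responses of the 2 genotypes differed by -0.09 (95% interval -0.36 to 0.18, adjusted p = 0.863, or 0.900 without the library labelled KO TAC 4).

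Mrtfb was lowest in KO TAC hearts. It was measured at 37.5, 31.2, 34.6 and 28.8 CPM in Ctrl sham and at 30.7, 30.3, 32.4 and 32.4 CPM in KO sham. In Ctrl TAC the values were 33.2, 40.5, 28.0 and 25.6 CPM, and in KO TAC 24.5, 20.5, 29.4 and 25.9 CPM. The KO TAC libraries all lie below the KO sham libraries, and they overlap the Ctrl TAC libraries, which spread widely. The log2 fold change of TAC in KO hearts was -0.33 (SE 0.13, edgeR adjusted p = 0.0609, or -0.34 and 0.0887 without the library labelled KO TAC 4), and the DESeq2 Wald test put it past the threshold (adjusted p = 0.0334). With edgeR it also passed without Ctrl TAC 2, Ctrl TAC 4 or KO TAC 3 (adjusted p = 0.0216, 0.0394 and 0.0286) and in a fit to the 8 KO libraries alone (adjusted p = 0.0122). In the other 20 alternatives it did not pass (adjusted p = 0.0536 to 0.175). Against Ctrl TAC it was -0.34 (SE 0.13, unadjusted p = 0.0164, adjusted p = 0.158, or -0.36 and 0.203 without that library). In Ctrl hearts the value for TAC was -0.05 (95% interval -0.30 to 0.20), and the interaction of -0.27 had an interval of -0.63 to 0.08 (adjusted p = 0.613, or 0.621 without that library). Among the mice with numbers starting with 25, Mrtfb stood at 31.4 CPM on average in 3 Ctrl TAC libraries and at 25.9 CPM in the library labelled KO TAC 4, and among the other TAC mice at 33.2 CPM in Ctrl TAC 1 and 24.8 CPM on average in 3 KO TAC libraries.

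Per kilobase of exon, the makeup of the coactivator family could be compared between its members. In Ctrl sham hearts Myocd made up 45.3% ± 4.72, Mrtfb 40.8% ± 4.97 and Mrtfa 13.9% ± 1.09 of the summed level of the 3 (SD, n = 4), and KO sham hearts had means of 46.5%, 39.2% and 14.3%. In Ctrl TAC hearts the means were 47.6%, 35.9% and 16.5%, and in KO TAC hearts 51.5%, 31.4% and 17.1% (50.8%, 31.6% and 17.6% without the library labelled KO TAC 4). The share of Mrtfb was thus lowest in KO TAC hearts, at 29.0% to 33.2% against 31.0% to 39.8% in Ctrl TAC. The ratio of Mrtfb to Mrtfa was 2.303 to 3.433 in Ctrl sham, 2.67 to 2.93 in KO sham, 1.91 to 2.43 in Ctrl TAC and 1.49 to 2.19 in KO TAC. These shares describe the libraries and were not tested, and the levels per kilobase use the union of annotated exons, which can exceed the length of any one transcript.

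**Figure D2:**
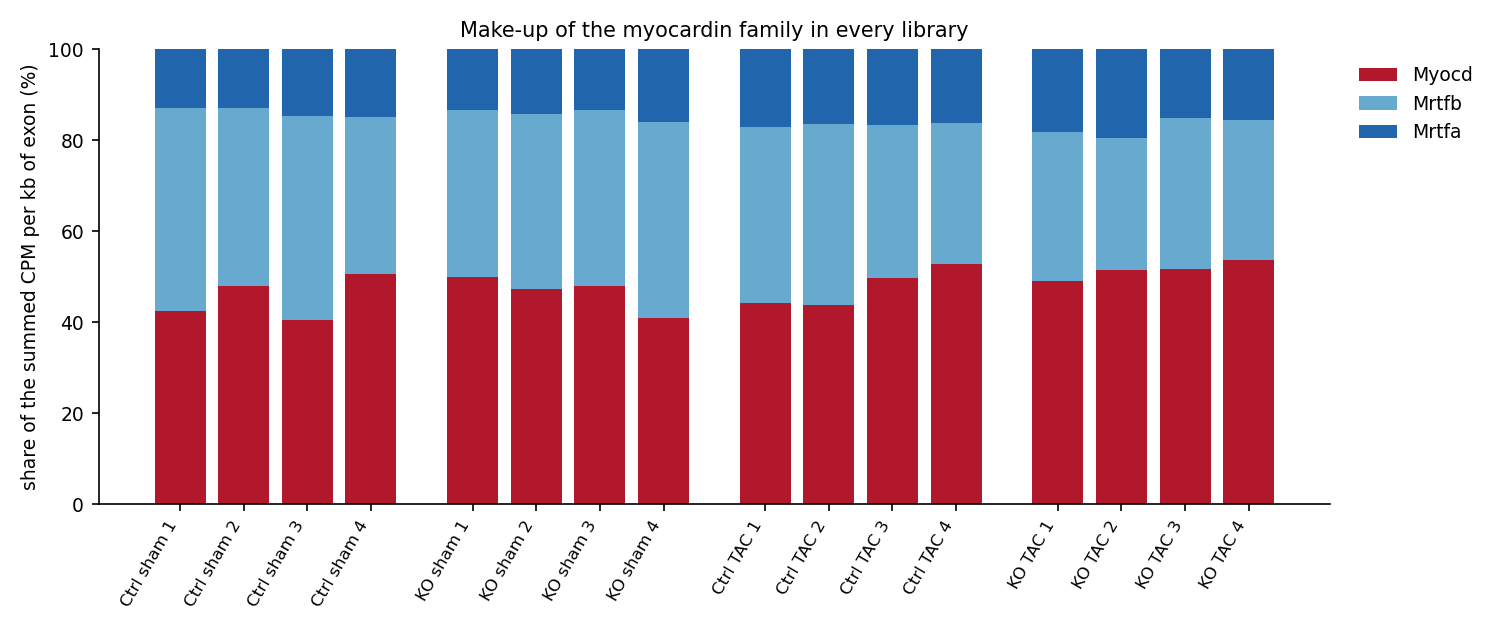
Share (percent, vertical axis) of Myocd, Mrtfb and Mrtfa in their summed CPM per kilobase of exon, with 1 stacked bar for each of the 16 libraries in their 4 groups. The share of Mrtfb runs from 34.4% to 44.9% in Ctrl sham and from 29.0% to 33.2% in KO TAC.

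Map2k4, the kinase MKK4 that activates JNK and p38 in stress signalling, was even across the groups. Its libraries ran from 42.8 to 48.0 CPM in Ctrl sham, 39.9 to 46.5 in KO sham, 40.9 to 46.3 in Ctrl TAC and 41.9 to 47.2 in KO TAC. The largest of its 4 differences between groups was -0.08 on the log2 scale (KO against Ctrl in sham, 95% interval -0.19 to 0.04), and none passed the test. In TAC hearts the log2 fold change of KO against Ctrl was 0.00 (95% interval -0.11 to 0.12), or -0.03 without the library labelled KO TAC 4. Elac2, the RNase Z that trims the 3′ trailers of nuclear and mitochondrial tRNAs, was as even, with libraries of 23.2 to 24.9 CPM in Ctrl sham, 20.5 to 25.5 in KO sham, 22.8 to 27.5 in Ctrl TAC and 22.3 to 25.0 in KO TAC. Its largest difference was -0.11 (KO against Ctrl in TAC, 95% interval -0.25 to 0.03, adjusted p = 0.433, or -0.09 and 0.573 without that library).

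Arhgap44, a GTPase-activating protein with a membrane-bending BAR domain, rose with TAC in KO hearts, and missed the threshold without the library labelled KO TAC 4. The KO sham libraries held 26.7, 23.9, 25.8 and 25.6 CPM and the KO TAC libraries 27.1, 27.0, 34.9 and 30.8 CPM. Its level was 25.0, 29.2, 25.2 and 26.6 CPM in Ctrl sham and 30.9, 29.6, 27.2 and 29.5 CPM in Ctrl TAC. The KO groups do not overlap, by a narrow gap, and the Ctrl groups do. The log2 fold change was 0.23 in KO hearts (SE 0.076, 1.18-fold, adjusted p = 0.0239, or 0.0569 without the library labelled KO TAC 4, 0.109 without KO TAC 3 and 0.0754 without KO sham 2) and 0.14 in Ctrl hearts (SE 0.076, adjusted p = 0.212), and the responses differed by 0.09 (95% interval -0.12 to 0.30, adjusted p = 0.813, or 0.858 without that library).

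**Figure D3:**
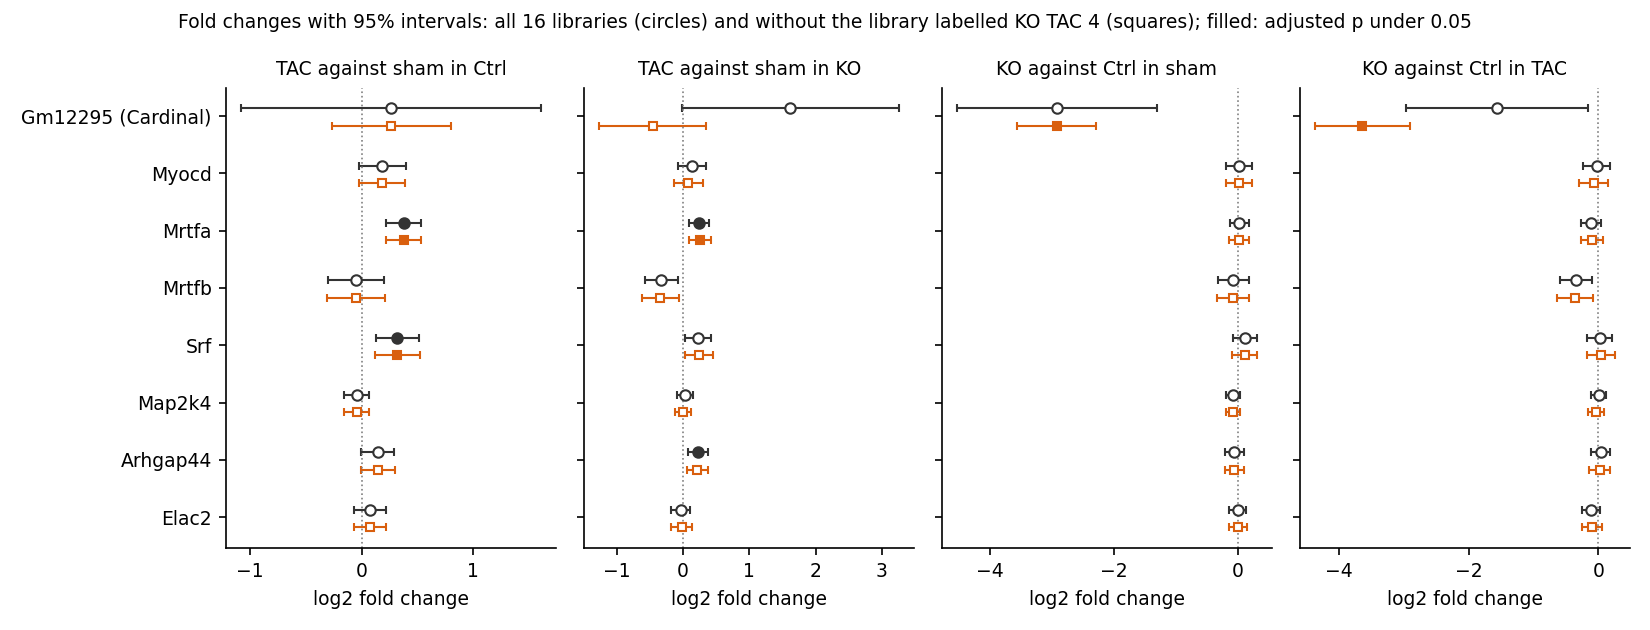
Log2 fold changes of the 8 genes (horizontal axis, with a scale of its own in each panel) with 95% intervals, for TAC against sham in each genotype and KO against Ctrl in each operation. Circles are the model over 16 libraries, squares the model without the library labelled KO TAC 4, and filled symbols have an adjusted p under 0.05. Cardinal moves from -1.57 to -3.64 for KO against Ctrl in TAC, and the intervals of the other 7 genes for KO against Ctrl in sham include 0. For KO against Ctrl in TAC the interval of Mrtfb over 16 libraries excludes 0 (-0.59 to -0.09, edgeR adjusted p = 0.158).

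Counted over the set, few of the 8 genes passed the test (adjusted p under 0.05, edgeR). With TAC in Ctrl hearts 2 passed (Mrtfa and Srf), where 20.0% of all tested genes were called. In KO hearts 2 passed (Mrtfa and Arhgap44), where 34.3% were called, and 1 without the library labelled KO TAC 4, where 31.0% were called. These counts are close to the share of all genes. For KO against Ctrl in sham hearts none of the 8 passed, with 0.00% of genes called, 1 member and 479 of all genes at an unadjusted p under 0.05, and 3 genes called by DESeq2, none of them among the 7 members to which it gave an adjusted p (it gave none to Cardinal). Without that library Cardinal passed and was the 1 gene called of 18494 (0.00541%). For KO against Ctrl in TAC hearts none passed (2 members and 3380 of all genes at an unadjusted p under 0.05, 2.68% of genes called). DESeq2 called no member there, against 6.47% of all genes. Without that library Cardinal passed by edgeR (2.37% called). No member passed in the interaction by edgeR (0.0109% of genes called, or 0.00541% without that library). None had an unadjusted p under 0.05 there, as had 2024 of all 18275 genes. DESeq2 called no member in the interaction, against 0.722% of all genes.

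Members whose groups did not overlap can be read against the same background. With TAC in Ctrl hearts this held for 1 member (Mrtfa, against 20.5% of all genes) and in KO hearts for 3 (Mrtfa, Mrtfb and Arhgap44, against 34.6%, or 38.6% without the library labelled KO TAC 4, where there were again 3). Between genotypes it held for Cardinal in sham hearts and for no member in TAC hearts (10.5% of genes), or for Cardinal without that library (15.4%).

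The order of levels per kilobase of exon in Ctrl sham hearts was Srf (20.6 ± 1.90 CPM per kilobase), Map2k4 (9.76 ± 0.494), Elac2 (6.94 ± 0.206), Arhgap44 (4.56 ± 0.332), Myocd (4.09 ± 0.520), Mrtfb (3.67 ± 0.423), Mrtfa (1.25 ± 0.106) and Cardinal (0.989 ± 0.0781), as mean ± SD over 4 libraries. Arhgap44 and Myocd overlapped between libraries, as did Myocd and Mrtfb, and the other neighbours in this order did not. In the KO sham hearts Cardinal stood at 0.130 ± 0.0331 CPM per kilobase.

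The other genes around Cardinal were examined for the question of whether the deletion reached its neighbours. Of 19 other annotated genes within 1 Mb of either end of Gm12295, 18 were in the count table and 8 passed the filter on low counts: Myocd, Arhgap44, Elac2, Map2k4, Zkscan6, Shisa6, Hs3st3a1 and the pseudogene Gm12291. None of the 8 passed the test for KO against Ctrl in sham or TAC hearts, with or without the library labelled KO TAC 4. Over all genes 0.00% were called in sham and 2.68% in TAC hearts, or 0.00541% and 2.37% without that library. With shares this low, the absence of calls is not particular to these 8 genes. Zkscan6, a zinc finger gene 441376 bases away, differed by -0.01 in sham and 0.03 in TAC hearts on the log2 scale, or 0.06 in TAC hearts without that library. Hs3st3a1, a heparan sulfate sulfotransferase gene 754812 bases away at about 1 CPM, had the largest difference among the protein-coding ones (log2 fold change -0.45 in sham hearts, SE 0.26, unadjusted p = 0.0970, edgeR adjusted p = 0.9998). The 10 genes of the window that did not pass the filter had at most 9 counts in any library.

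The gene of this window that responded to TAC was Shisa6, which encodes a membrane protein known to bind AMPA receptors. It lies 845926 bases from Cardinal and was measured at 1.06 to 1.41 CPM in Ctrl sham, 0.999 to 1.45 in KO sham, 0.152 to 0.418 in Ctrl TAC and 0.162 to 0.410 in KO TAC. Every TAC library lies below every sham library. The log2 fold change was -2.04 in Ctrl hearts (SE 0.29, adjusted p = 6.36e-05) and -2.03 in KO hearts (SE 0.29, adjusted p = 2.42e-05, or 5.40e-05 without the library labelled KO TAC 4), and its difference between genotypes was -0.05 in TAC hearts, or -0.24 without that library. With Shisa6, 1 of 8 window genes passed for TAC in Ctrl hearts, where 20.0% of all genes were called. In KO hearts 2 passed (with Arhgap44, against 34.3% of all genes), or 1 without that library (against 31.0%).

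**Figure D4:**
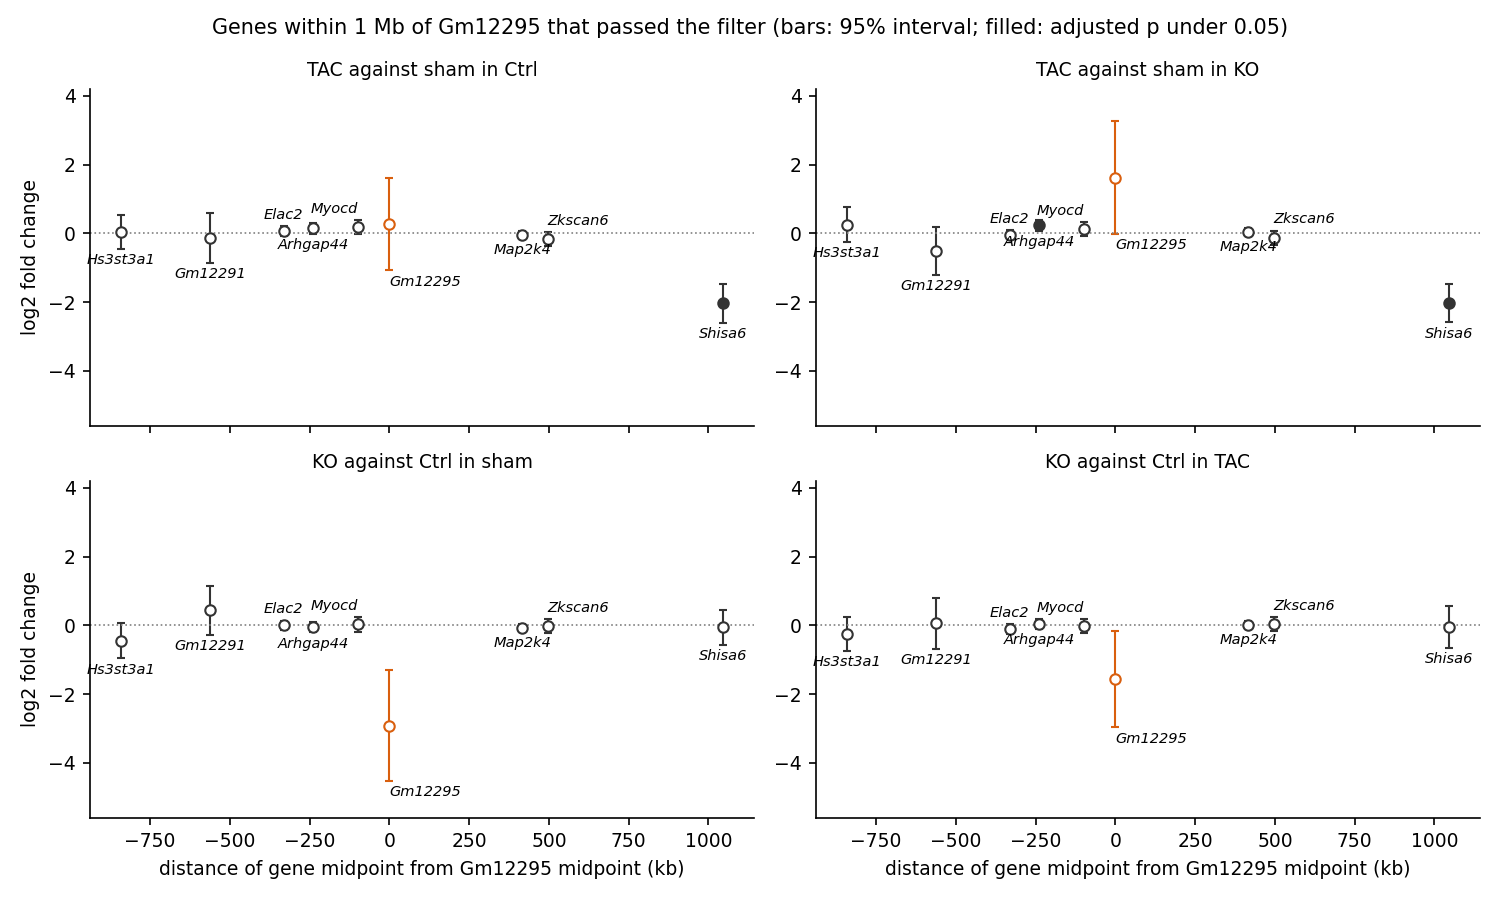
Log2 fold change (vertical axis) with 95% interval of the tested genes around Cardinal, by the distance of the midpoint of the gene from that of Gm12295 in kilobases (horizontal axis), in 4 panels for the 4 comparisons over 16 libraries. Filled symbols have an adjusted p under 0.05, and Gm12295 is in orange. In both panels for KO against Ctrl no symbol is filled, and Shisa6 stands at -2.04 and -2.03 in those for TAC.

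Whether Cardinal and the other 7 genes vary together where the gene is intact was examined over the 8 Ctrl libraries. Pearson's r of log2 CPM ran from -0.61 (Map2k4) to 0.60 (Elac2) and Spearman's rank correlation from -0.45 (Myocd) to 0.14 (Elac2). None of the 7 relations passed an exact permutation test (p of r adjusted over 7 from 0.403 to 0.993, and of the rank correlation 0.977 for each). The values of r rested on Ctrl TAC 1, the library with the highest Cardinal. Without it r went from 0.01 to -0.92 for Mrtfa, from 0.41 to -0.79 for Srf and from 0.60 to -0.20 for Elac2, and the relation to Mrtfa then passed. With Ctrl TAC 1 and 2 both left out, the farthest from the median of Cardinal, r was -0.81 for Mrtfa, -0.54 for Srf and -0.12 for Myocd. Within the 4 sham libraries r with Mrtfa was -0.74 and within the 4 TAC libraries -0.17. For Myocd it was -0.24 over the 8 libraries, 0.32 within sham and -0.90 within TAC. Sham and TAC libraries are pooled in the value over 8, and all share the scaling of their library.

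Over all 16 libraries the genes most like each member in log2 CPM were found among 13505 genes, as a description. Srf was most like Stk40 (r = 0.94), Syt12 (0.93) and Sync (0.92), and Mrtfb most like Speg (0.95), a kinase of striated muscle, and Tns1 (0.92). These values held within groups, at 0.93, 0.87 and 0.88 for Srf and 0.92 and 0.87 for Mrtfb. Mrtfa was most like Cd151 (0.94), Ninj1 (0.92) and Ciao2b (0.92), with 0.67 to 0.82 within groups. Myocd was most like Sco1 (0.83), Lsm12 (0.795) and Vegfa (0.79), and Arhgap44 most like Sulf2, Usp47 and Mical3 (0.88 to 0.89). Map2k4 was most like Dnajc13, Toe1 and Lbh (0.83 to 0.84) and Elac2 most like 9330102E08Rik, Usp5 and Exoc7 (0.77 to 0.83). Cardinal was most like 9230114K14Rik (0.87, within groups 0.66), Mrm2 (0.74) and Ccdc9b (0.71). Among the 28 pairs of members the highest r were those of Mrtfa with Srf (0.68, within groups 0.24) and of Myocd with Arhgap44 (0.64, within groups 0.52), and the lowest that of Srf with Map2k4 (-0.55, within groups -0.70). The libraries of a group share genotype and operation, and the highest of 13505 values is high by selection.

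The partners of SRF included genes that rose with TAC in both genotypes. Of 38 genes that bind SRF or the myocardin family or regulate MRTFs through actin, 20 passed with TAC in Ctrl hearts (52.6%, 14 higher and 6 lower, median log2 fold change 0.14), where 20.0% of all genes were called. In KO hearts 24 passed (63.2%, 17 higher and 7 lower, median 0.18), where 34.3% of all genes were called, or 23 (60.5%, median 0.20, against 31.0%) without the library labelled KO TAC 4. The median over all genes was 0.00 in each. Abra, a sarcomeric actin-binding protein also known as STARS that activates MRTFs, was measured at 32.5 to 62.6 CPM in Ctrl sham and 86.1 to 134.5 CPM in Ctrl TAC (log2 fold change 1.43, SE 0.24, adjusted p = 0.000848), and its log2 fold change in KO hearts was 1.198, or 1.25 without the library labelled KO TAC 4. Fhl1, a LIM protein of the sarcomere, rose by 1.27 in Ctrl and 1.46 in KO hearts on the log2 scale (1.31 in KO without that library), and Csrp2, a LIM protein of smooth muscle, by 0.86 and 1.26 (1.29). Between KO TAC and Ctrl TAC hearts 3 of the 38 passed (7.89%, against 2.68% of all genes), or 2 (5.26%, against 2.37%) without that library, and none with a model term for animal numbers starting with 25. Csrp2 was higher (0.43, adjusted p = 0.0202), Cfl2, the muscle cofilin, was higher (0.20, adjusted p = 0.0425, or 0.0926 without that library), and Hopx, a homeodomain-only protein that binds SRF, was lower (-0.54, adjusted p = 0.0221). Without that library Csrp2 stood at 0.46 (edgeR adjusted p = 0.0233) and Hopx at -0.59 (0.0238). With the term for animal numbers the log2 fold changes of the 3 were 0.43, 0.22 and -0.37 (adjusted p = 0.112, 0.132 and 0.146).

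The contractile and cytoskeletal targets of SRF included the strongest responses. Acta1 was measured at 129.4 to 286.9 CPM in Ctrl sham, 151.6 to 323.7 in KO sham, 2448 to 3915 in Ctrl TAC and 2494 to 3810 in KO TAC, with log2 fold changes of 3.91 (SE 0.30) and 3.66 (SE 0.30, or 3.69 without the library labelled KO TAC 4). Nppa and Nppb, the natriuretic peptides, rose by 2.98 and 2.49 in Ctrl and by 3.99 and 2.55 in KO hearts (4.06 and 2.54 without that library). Of the 42 genes of this list, 21 passed in Ctrl (18 higher and 3 lower, median 0.22), where 20.0% of all genes were called. In KO hearts 31 passed (73.8%, 27 higher and 4 lower, median 0.40, against 34.3% of all genes), or 28 (66.7%, median 0.39, against 31.0%) without that library. Between KO TAC and Ctrl TAC 5 passed (11.9%, against 2.68% of all genes), or 4 (9.52%, against 2.37%) without that library. Actg1, a cytoskeletal actin, was higher by 0.48, and Myh6, the adult alpha-myosin heavy chain, and Atp2a2, the calcium pump SERCA2, were lower (-0.39 and -0.29). Cald1 (0.26) and Filip1l (0.29, adjusted p = 0.0610 without that library), named after their values were seen, complete the 5. Without that library the edgeR adjusted p of Actg1, Myh6, Atp2a2 and Cald1 ran from 0.0154 to 0.0474. With the model term for animal numbers starting with 25 none of the 42 passed, and the 5 stood at 0.44, -0.40, -0.29, 0.27 and 0.24 (adjusted p = 0.101 to 0.214).

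Immediate early targets of SRF were the list in which KO TAC and Ctrl TAC hearts stood farthest apart by median. Fosl2, a Fos family member of AP-1, was measured at 19.1, 25.7, 23.1 and 23.4 CPM in Ctrl TAC and at 55.73, 50.59, 70.03 and 30.95 CPM in KO TAC (log2 fold change 1.18, SE 0.24, adjusted p = 0.0239, or 0.00807 without the library labelled KO TAC 4). Btg2, an antiproliferative gene, was measured at 24.3, 37.1, 44.7 and 40.1 CPM in Ctrl TAC and at 86.4, 94.2, 98.7 and 49.5 CPM in KO TAC (log2 fold change 1.17, SE 0.27, adjusted p = 0.0422, or 0.0213 without that library). For both genes all KO TAC libraries lie above all Ctrl TAC libraries, and the library labelled KO TAC 4 is the lowest of its group. Of the 13 genes of the list 5 passed, all higher (38.5%, against 2.68% of all genes), with a median of 1.15 over the list against 0.00 over all genes. Without that library 9 passed (69.2%, against 2.37%) and the median was 1.35. Egr2 (2.02, or 2.21 without that library), Egr3 (0.97, or 1.02) and Dusp5 (0.86, or 0.94) are the other 3 of the 5, named after their values were seen. With TAC in KO hearts 9 of 13 passed, all higher (69.2%, against 34.3% of all genes, median 1.32), among them Egr1 (1.57, or 1.75 without that library) and Junb (1.35, or 1.498). Without that library 9 passed again (against 31.0% of all genes, median 1.498). In Ctrl hearts 2 passed (15.4%, below the 20.0% of all genes, median 0.08), which are Egr2 and Egr3. Ctrl sham 2 stood apart on this list, with Egr1 at 19.9 CPM against 3.58 to 6.63 in the other Ctrl sham libraries, Junb at 15.9 against 6.38 to 8.57 and Fos, named after its values were seen, at 5.91 against 0.975 to 1.70. Without Ctrl sham 2, 3 of the 13 passed with TAC in Ctrl hearts. The comparisons share the KO TAC or the Ctrl TAC libraries. No gene of the list passed in the interaction. There 6 of 13 had an unadjusted p under 0.05, as had 2024 of all 18275 genes, and DESeq2 called 1, against 0.722% of all genes.

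The calls of this list moved with the animal numbers, as did the calls between KO TAC and Ctrl TAC in the other lists. With a model term for numbers starting with 25, none of the 13 passed between KO TAC and Ctrl TAC, and the count over all genes went from 489 to 12. The list median was then 0.92, against 1.15 without the term. Fosl2, Btg2, Egr2, Egr3 and Dusp5 stood at 0.98, 1.10, 1.94, 0.92 and 0.65 with the term (edgeR adjusted p = 0.165 to 0.248). Within the mice with these numbers Fosl2 was at 23.1 to 25.7 CPM in 3 Ctrl TAC libraries and at 31.0 CPM in the library labelled KO TAC 4, and within the other TAC mice at 19.1 CPM in Ctrl TAC 1 and 50.59 to 70.03 CPM in KO TAC 1, 2 and 3. Each of these sets holds 1 library of a genotype, so it allows no test.

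Among the genes of the cascade around Map2k4 and of tRNA processing around Elac2, the shares called with TAC were near or below that of all genes, apart from the stress kinase list in KO hearts over 16 libraries. Of 39 tested stress kinase genes 8 passed with TAC in Ctrl (20.5%, against 20.0% of all genes, 4 higher and 4 lower). In KO hearts 17 passed (43.6%, against 34.3%, 8 higher and 9 lower), or 13 (33.3%, against 31.0%) without the library labelled KO TAC 4. Mapk14, the p38 alpha kinase downstream of Map2k4, was lower in both (log2 fold changes of -0.32 in Ctrl and -0.41 in KO hearts, or -0.45 without that library), and Jun, the transcription factor that JNK phosphorylates, was higher in KO hearts (0.84, or 0.97). Mapk8ip1, a scaffold of the JNK pathway, and Jund, a Jun family member, were higher in Ctrl (0.33 and 0.30) and in KO hearts (0.30 and 0.34). Without that library their KO values were 0.26 (edgeR adjusted p = 0.0989) and 0.39 (edgeR adjusted p = 0.0112). Mapk11, the p38 beta kinase, passed in KO hearts (0.41, adjusted p = 0.0258, or 0.36 and 0.0789 without that library) and not in Ctrl hearts (0.34, adjusted p = 0.0917). None of the 39 passed between KO and Ctrl TAC hearts. There 5 had an unadjusted p under 0.05, as had 3380 of all 18275 genes, and DESeq2 called 1, against 6.47% of all genes. Of 21 tested tRNA end processing genes 3 passed in Ctrl, all lower (14.3%, against 20.0% of all genes), and none with the term for animal numbers starting with 25. In KO hearts 7 passed (33.3%, against 34.3%, 2 higher and 5 lower), or 3 (14.3%, against 31.0%) without that library. Elac1, the short form of RNase Z, was lower in Ctrl (-0.29) and in KO hearts (-0.25, edgeR adjusted p = 0.0470, or -0.26 and 0.0753 without that library). Fastkd1, a mitochondrial RNA-binding protein, was lower (-0.38, or -0.44 without that library) and Pop7, a subunit of nuclear RNase P, higher (0.33, or 0.38) in KO hearts. Between KO TAC and Ctrl TAC 1 of the 21 passed (4.76%, against 2.68% of all genes), and again 1 without that library (against 2.37%). This was Hsd17b10, a subunit of mitochondrial RNase P (log2 fold change -0.26, edgeR adjusted p = 0.0310, or 0.0492 without that library). Hsd17b10 was also lower with TAC in Ctrl (-0.21) and KO hearts (-0.52, or -0.53 without that library). With the term for animal numbers starting with 25 it did not pass between genotypes (-0.25, adjusted p = 0.146) or with TAC in Ctrl (-0.23, adjusted p = 0.0731). For KO against Ctrl in sham hearts, no gene of the 5 lists passed by edgeR or DESeq2. There 1 gene of the SRF partners and 1 of the stress kinase list had an unadjusted p under 0.05, as had 479 of all 18275 genes.

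**Figure D5:**
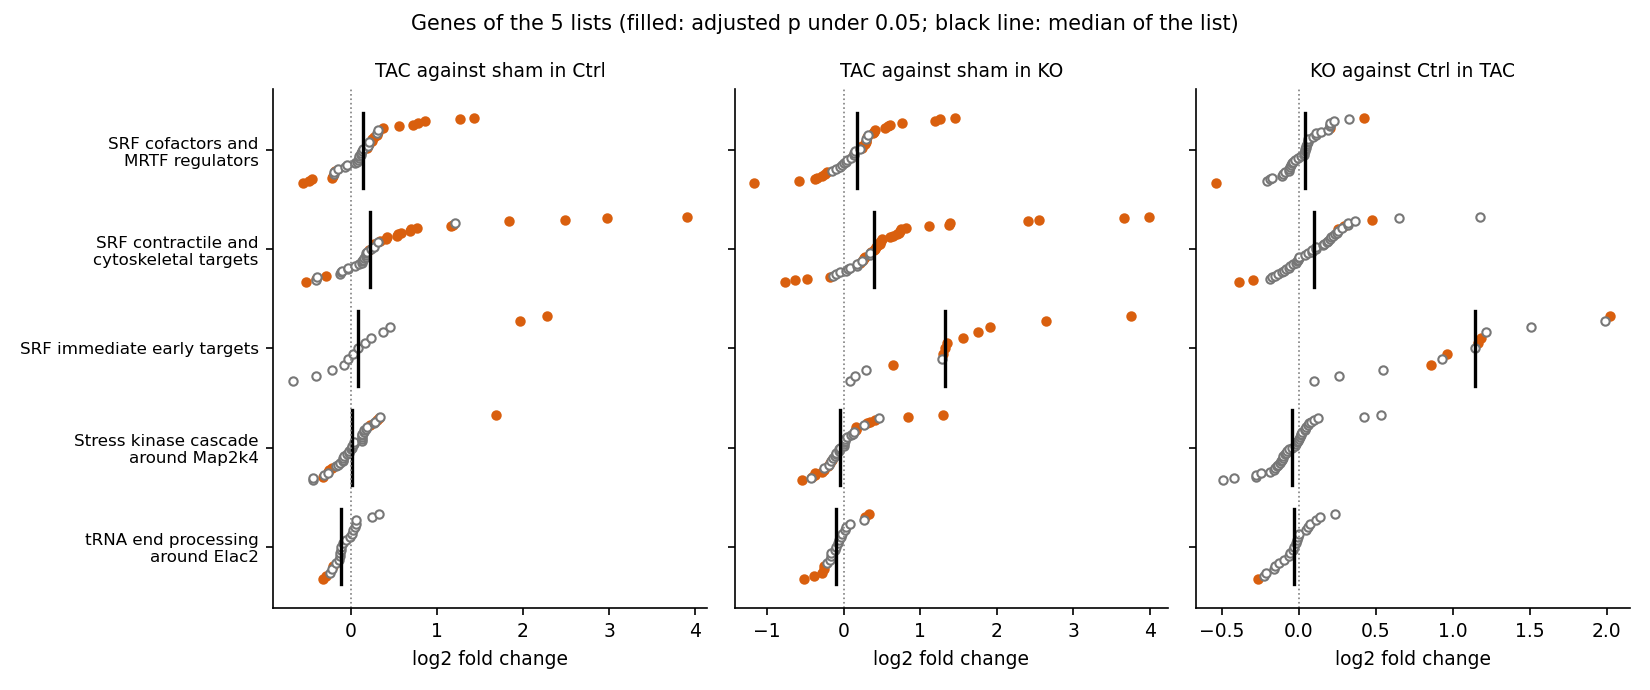
Log2 fold change (horizontal axis, with a scale of its own in each panel) of each gene of the 5 lists, sorted within its list, for TAC against sham in Ctrl and in KO hearts and for KO against Ctrl in TAC hearts. Filled points have an adjusted p under 0.05 and the black lines are list medians. The line of the immediate early targets stands at 0.08, 1.32 and 1.15 in the 3 panels.

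Cell type markers moved with the operation beside these results. The summed level of 7 cardiomyocyte markers ran from 44910 to 52170 CPM in Ctrl sham, 45150 to 50600 in KO sham, 37460 to 41250 in Ctrl TAC and 32040 to 33410 in KO TAC. That of 7 fibroblast markers ran from 556.5 to 667.8 CPM in Ctrl sham, 581.1 to 616.9 in KO sham, 995.8 to 1345 in Ctrl TAC and 1406 to 1592 in KO TAC. Those of 6 macrophage markers ran from 148.3 to 197.4, 150.1 to 198.9, 206.6 to 263.1 and 228.0 to 330.1 CPM in the same order. The 5 markers of atrial muscle, low throughout, summed to 3.37 to 4.12 CPM in Ctrl sham, 2.65 to 4.34 in KO sham, 8.24 to 10.5 in Ctrl TAC and 13.2 to 19.7 in KO TAC. Of the 2 of them that passed the filter, both passed with TAC in Ctrl and 1 in KO hearts, and 1 passed between KO TAC and Ctrl TAC, all higher. The sum of the cardiomyocyte markers was thus lowest, and those of the fibroblast and atrial markers highest, in KO TAC hearts. Myh6 alone averaged 15340 CPM there. Between KO TAC and Ctrl TAC, 2 of 7 cardiomyocyte markers passed (both lower) and 1 of 7 fibroblast markers (higher). None of the 6 macrophage markers passed, where 2.68% of all genes were called. Without the library labelled KO TAC 4 the KO TAC sums ran from 32040 to 33250 CPM for cardiomyocyte markers, while those of fibroblast, macrophage and atrial markers kept their ranges. With TAC, 4 of 7 fibroblast and 4 of 6 macrophage markers passed in Ctrl and 7 of 7 and 6 of 6 in KO hearts, all higher. Of the 7 cardiomyocyte markers 6 passed in each genotype (1 of them higher in Ctrl hearts). Over all genes 20.0% were called with TAC in Ctrl and 34.3% in KO hearts, so more calls in KO hearts were not particular to these markers. The 7 smooth muscle markers, of which Myocd is one, summed to 271.3 to 303.8 CPM in Ctrl sham and 269.2 to 282.3 in KO sham. In Ctrl TAC they summed to 209.1 to 271.4 CPM and in KO TAC to 233.1 to 267.3 CPM (to 250.8 without that library). Single smooth muscle markers went both ways. With TAC 2 of the 7 passed in Ctrl hearts (1 higher and 1 lower, median log2 fold change -0.11). In KO hearts 3 passed (2 higher and 1 lower, median 0.08). No endothelial or red blood cell marker was called with TAC. In bulk tissue, fewer cells of a type and less RNA per cell cannot be told apart, and the part that these shifts had in the TAC values of the 8 genes and the lists was not tested.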

How the data were processed

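Poly(A) libraries of 16 mouse heart apices were read as paired ends of 150 bases. The authors deposited 1 table of raw counts per Ensembl gene, with no normalization. The submitters' processing notes name cutadapt 2.3, HISAT2 2.1.0, edgeR 3.26.1, FastQC and the build GRCm38, whereas the counting program, the annotation and the strand setting are not given in the sources used here. Library totals ran from 53169437 to 79404714, and intervals of single counts cover counting error only. Groups came from the genotype and treatment labels, and replicates were numbered in the order of the samples.

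Genes were filtered with filterByExpr, libraries scaled by TMM, and a model of 4 group means was fitted to all 16 libraries in edgeR 4.0.16 (R 4.3.3, quasi-likelihood, robust). There were 5 contrasts with Benjamini-Hochberg adjustment over the 18275 genes kept, and 95% intervals are ± 1.96 SE. CPM are relative to the TMM-scaled total, and log2 CPM used a prior count of 2. Positions and exon lengths came from GENCODE M21, promoters from RefSeq (GRCm38.p6). The scripts were tested on simulated data. The edgeR and DESeq2 p-values rest on an estimate, per gene, of the spread between libraries that all groups in the model share. The exact permutation p-values rest on relabelling or re-pairing the libraries compared.

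The 8 genes, the 5 lists (155 symbols, from general knowledge) and the markers were chosen with earlier results of these data known. Genes named from a list were the called ones with a mean log2 CPM of at least 2, up to 3 per list and comparison with the largest change, plus any window gene that passed the filter and the 3 genes most like each member among genes with a mean log2 CPM of at least 0. Of the genes most like a member, 1 is not reported here. Alternatives were DESeq2 1.42.0, RLE size factors, other filters, a threshold of 0.01, model terms for animal numbers starting with 25 or 33, fits to 8 libraries, a window of 0.5 Mb and the omission of each library. The joint omission of Ctrl TAC 1 and KO TAC 4 was added after seeing the data.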

Additional observations from a re-analysis of the deposited data

Results flagged for a closer look

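Of 32 checks of the highest and lowest library (8 genes in 4 groups), 3 found a library far from the other 3 of its group, with a gap over the range of the group above Dixon's 95% critical value for 4 libraries. Chance alone marks about 1 in 20 groups. Cardinal stood at 8.03 CPM in Ctrl TAC 1 (gap over range 0.872) and at 4.55 CPM in the library labelled KO TAC 4 (0.978). Elac2 stood at 20.5 CPM in KO sham 3 (0.936), where the other KO sham libraries held 25.2 to 25.5 CPM. For Myocd, the neighbour of Cardinal, Ctrl TAC 1 was the lowest of its group at 26.9 CPM, and the library labelled KO TAC 4 held 32.3 CPM.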

How the results depend on the processing

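No paired analysis was possible because the labels give the groups no shared replicate numbers. Over 87 results and their alternatives, 2020 values were computed: 1831 kept their direction and their side of the threshold, 16 lost and 16 gained a call, 61 changed sign and 96 (counts, and values without a test) moved further than set. The cause of these changes was not tested. Depth limits Cardinal in KO hearts, at 17 to 35 counts apart from the library labelled KO TAC 4, and p-values rest on 4 libraries or fewer per group.

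Counts of called members moved as follows. At an adjusted p under 0.01, 1 member was called with TAC in Ctrl and 0 in KO hearts (by the main threshold 2 and 2). Without Ctrl TAC 1 and KO TAC 4 together it was 1 in each of the 4 comparisons, and the fit to 8 libraries called 1 for KO against Ctrl in sham. With each library left out in turn, 1 to 2 members were called with TAC in Ctrl, 0 to 3 in KO hearts, and 0 to 1 between genotypes in sham and in TAC, where 1 is Cardinal without the library labelled KO TAC 4.

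The log2 fold changes that changed sign were small or those of Cardinal. Without Ctrl TAC 1 and KO TAC 4 together they were -0.22 and -0.46 for Cardinal with TAC in Ctrl and KO hearts and -0.23 for its interaction, and for Map2k4 -0.0030 with TAC in KO hearts and -0.066 for KO against Ctrl in TAC (-0.0012 in the fit to 8 libraries). With the term for numbers starting with 25, Cardinal gave -0.16 with TAC in Ctrl, Myocd 0.069 for KO against Ctrl in TAC and 0.043 for the interaction, Srf -0.058 for KO against Ctrl in TAC and Map2k4 -0.0046 with TAC in KO hearts. With the term for numbers starting with 33, the values for KO against Ctrl in sham were -0.14 for Myocd, 0.010 for Mrtfb, -0.036 for Srf and 0.012 for Elac2, those for the interaction 0.11 for Myocd and 0.056 for Srf, and Map2k4 gave -0.067 with TAC in KO hearts. With this last term the edgeR calls of Mrtfa (adjusted p = 0.0619) and Arhgap44 (adjusted p = 0.112) for TAC in KO hearts were lost and Srf was called (adjusted p = 0.00474). Myocd was also called by edgeR with this term, for TAC in Ctrl (adjusted p = 0.0374) and in KO hearts (adjusted p = 0.0192).

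With each library left out in turn, Cardinal ran from -0.22 to 0.43 with TAC in Ctrl (lowest without Ctrl TAC 1), from -0.46 to 1.95 with TAC in KO hearts and from -0.72 to 1.84 for the interaction (both lowest without the library labelled KO TAC 4). Its differences of mean log2 CPM ran from -0.225 to 0.297, from -0.40 to 0.90 and, for KO against Ctrl in TAC, from -3.41 to -2.11. For KO against Ctrl in sham, Myocd ran from -0.046 to 0.11, Mrtfa from -0.020 to 0.076 and Elac2 from -0.028 to 0.069. For KO against Ctrl in TAC, Myocd ran from -0.081 to 0.027, Srf from -0.031 to 0.088, Map2k4 from -0.033 to 0.027 and Arhgap44 from -0.047 to 0.081. For the interaction, Myocd ran from -0.14 to 0.020 and Srf from -0.17 to 0.011. With TAC, Mrtfb ran from -0.19 to 0.037 in Ctrl and Map2k4 from -0.0055 to 0.065 in KO hearts. Over the Ctrl libraries 0 to 1 of the 7 relations to Cardinal passed, with r from -0.92 to 0.39 for Mrtfa, -0.27 to 0.31 for Mrtfb, -0.79 to 0.71 for Srf, -0.74 to 0.21 for Map2k4, -0.24 to 0.63 for Arhgap44 and -0.20 to 0.71 for Elac2.

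For the lists, the SRF partners called with TAC ranged from 14 to 23 in Ctrl and 19 to 27 in KO hearts, and the contractile targets from 14 to 24 and 24 to 33. The immediate early targets ranged from 6 to 10 with TAC in KO hearts and from 0 to 10 for KO against Ctrl in TAC (0 at an adjusted p under 0.01, 10 by DESeq2, which called 6.47% of all genes), and the stress kinase list from 5 to 11 and 4 to 17 with TAC. The tRNA list ranged from 0 to 5 and 2 to 7 with TAC. For KO against Ctrl in TAC the partners ranged from 0 to 3, the contractile targets from 0 to 9 and the tRNA list from 0 to 1, and the term for numbers starting with 25 left none of the calls of these lists.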
